A study of Mus musculus with 7 samples.

Results

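The interferon response and antigen presentation genes described here are 37 mouse genes, picked by symbol, of the 21861 rows in a table of read counts from aged retinal pigment epithelium (RPE). All 37 had a row, and 36 had enough counts to be tested; Tlr9, with 0 to 2 counts in a library, did not. The RPE is the pigmented cell layer behind the photoreceptors. It was taken from aged mice 12 weeks after treatment with an adeno-associated virus (AAV) vector carrying GFP, the vector control, or GSTA4, a glutathione transferase that conjugates lipid-derived aldehydes. The AAV-GFP group had 3 libraries and the AAV-GSTA4 group 4. Both groups were aged and both had received AAV, so neither is an uninfected or a young reference. The labels give no strain, sex, exact age or vector promoter, and do not say whether a library came from 1 animal or from pooled animals; p-values therefore measure the spread between these libraries, which may be partly technical.

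Interferons of type I are secreted, for example, when a cell senses foreign nucleic acid. Type I interferons act through the kinases JAK1 and TYK2 on a complex that includes STAT2 and IRF9 and binds interferon-stimulated response elements (ISREs) in the promoters of antiviral genes, whereas interferon gamma acts on gamma-activated sites. The same signals raise the machinery that loads peptides on major histocompatibility complex (MHC) class I, which most cells carry. Class II is mostly made by professional antigen-presenting cells under the control of the transactivator CIITA. The RPE forms part of the blood-retina barrier and takes part in keeping the eye immunologically quiet.

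Elements known from promoters of these pathways were searched for in the member genes. A few stretches with a match are shown so that the letters can be seen beside the values of the same genes. Promoter windows of 250 bases before to 50 after the start site were matched for 28 of the 37 genes (RefSeq, GRCm38.p6). Of the class II genes only H2-Aa and H2-Eb1 had one. The ISRE core was searched on both strands as GAAA, any 2 bases, then GAAA. It was found in 11 of the 33 member windows (33.3%), against 3.44% of all 32851 windows, and in 11 of the 28 genes. In the following lines the capitals mark every match, and overlapping matches run together.
Isg15: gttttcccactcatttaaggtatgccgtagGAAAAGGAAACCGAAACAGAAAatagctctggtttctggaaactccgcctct
Bst2: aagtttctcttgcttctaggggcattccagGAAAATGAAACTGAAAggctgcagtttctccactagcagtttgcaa
Ifit1: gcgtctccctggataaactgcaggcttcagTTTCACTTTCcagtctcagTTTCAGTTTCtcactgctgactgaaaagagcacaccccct
Ifit3: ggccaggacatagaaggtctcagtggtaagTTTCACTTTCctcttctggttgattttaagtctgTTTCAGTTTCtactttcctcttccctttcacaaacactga
B2m: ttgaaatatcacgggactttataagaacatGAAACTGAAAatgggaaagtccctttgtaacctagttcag
These stretches lie at chr4:156200845-156200926 (minus strand) for Isg15, chr8:71537557-71537632 (minus) for Bst2, chr19:34640755-34640843 (plus) for Ifit1, chr19:34583343-34583446 (plus) for Ifit3 and chr2:122147518-122147587 (plus) for B2m. Isg15 held 3 overlapping matches, the first 78 bases before its start, and Bst2 held 2, the first 130 bases before its start.

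The Y box, an element known from MHC promoters, was searched as CTGATTGG on both strands. It was found in the windows of 5 members, H2-Aa, H2-D1, H2-Eb1, H2-K1 and Tap1, of class I and class II alike and all on chromosome 17. That was 6 of the 33 member windows (18.2%), against 4.1% of all windows. Capitals mark it in the class II stretches at chr17:34287837-34287904 (minus strand) and chr17:34305775-34305842 (plus strand).
H2-Aa: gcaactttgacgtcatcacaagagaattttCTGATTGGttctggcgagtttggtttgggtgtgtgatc
H2-Eb1: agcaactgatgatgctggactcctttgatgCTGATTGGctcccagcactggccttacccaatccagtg
The gamma-activated core, TTCNNNGAA, was in the windows of Bst2, Ifi35, Ifit2, Ifitm3 and Irf1, or 5 of 28 genes. That was 5 of the 33 member windows (15.2%), against 8.3% of all windows. A match describes these letters only and does not by itself show binding.

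Total counts ranged from 15329181 to 28998964 per library, so that 3 counts, taken as the smallest detectable level, corresponded to 0.111 to 0.176 CPM (counts scaled to library size by trimmed means). The human transgene row hGSTA4 had 1 to 3 counts in the AAV-GFP libraries and 45 to 5239 in the AAV-GSTA4 libraries. In this row every library thus sat on the side its label gives. AAV-GSTA4 replicate 3 was the lowest of its group, at 45 counts or 2.64 CPM, against 43.7 to 251 CPM in the others. The part of the transgene level in the member values was not tested. The d2EGFP row did not separate the groups, with 99 to 3970 and 7 to 163 counts. RPE markers such as Rpe65 and Rgr summed to 22059 to 107990 CPM over the libraries. Rgr was the most abundant of them, at 12273 to 61493 CPM, and Best1 the least, at 1.15 to 3.32 CPM. AAV-GFP replicate 3 stood apart: it had the lowest RPE marker sum, the highest rod marker sum (36213 CPM, against 6481 to 20678 CPM in the others) and a mean correlation of 0.838 with the other libraries, against 0.910 to 0.926 for each of those. Over the groups, 10 of 10 rod markers had fitted changes below 0 (median log2 fold change -1.20), with sums of 11896 to 36213 CPM in AAV-GFP and 6481 to 12116 CPM in AAV-GSTA4. For the RPE, 8 of 10 markers had fitted changes above 0, with sums of 22059 to 68742 CPM and 59392 to 107990 CPM. The sums of the 6 Mueller glia markers did not overlap, at 5553 to 8433 CPM and 8831 to 14366 CPM. Most of each sum came from Apoe (3292 to 8983 CPM) and Rlbp1 (1715 to 4897 CPM), which is in the RPE list too. Of the 6, 3 had fitted changes above 0 (Rlbp1 and Apoe at 0.76, Glul at 0.20). The other 3 were below 0 (Slc1a3 at -1.43, Aqp4 and Kcnj10 at -0.85), so the sum does not describe the list as a whole. No marker of these lists passed the adjusted threshold. The part of these marker differences in the results was not tested. Because AAV-GFP replicate 3 stood apart, results are given with and without it.

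No member passed the adjusted threshold between AAV-GSTA4 and AAV-GFP. Bst2 and Irf9 were higher in every AAV-GSTA4 library than in any AAV-GFP library, Irf7 was lower in every one, and the other 33 members overlapped. All 5 class II genes had fitted changes below 0. In edgeR's quasi-likelihood test 0 of 36 members had a Benjamini-Hochberg adjusted p-value under 0.05, as had 0% of the 15075 genes tested. The transgene rows were not called either. In that test hGSTA4 had a log2 fold change of 10.7 ± 1.77 (SE, adjusted p = 0.363). That of d2EGFP was -4.80 ± 1.16 (SE, adjusted p = 0.363). The lack of a call therefore does not show that a member was unchanged. The lowest adjusted p-value among the members was 0.373. DESeq2 called 201 genes (1.33%) and limma-voom with robust variances 146 (0.968%), none of them members. Plain limma-voom, without robust variances, called none. Both limma-voom fits gave each library a weight estimated from the data, so the libraries did not count equally. In DESeq2 5 members (Zbp1, Oas2, Rsad2, Nlrc5 and Ciita) had no adjusted p-value and could not have been called. The unadjusted p-value was under 0.05 for 3 members (8.33%, background 11.9%): Bst2 was higher (background 5.27%), and Irf7 and Ifitm3 were lower (background 6.63%). In limma-voom these were 5 higher members (13.9%, background 10.3%) and 11 lower (30.6%, background 11.5%). The groups did not overlap for 2 members in the higher direction (background 6.44%) and for 1 in the lower (background 5.61%), so neither count was above the share of all genes. Of the 36, 21 had a fitted change below 0 (58.3%), as had 55.4% of all genes, and their median log2 fold change was -0.21, against -0.07 over all genes. Under library-total scaling the all-gene median was -0.37. Then 0 members lay higher without overlap (background 2.02%) and 8 lower (22.2%, background 12%). At an unadjusted p-value under 0.05 10 were lower (27.8%, background 14.1%).

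**Figure D1:**
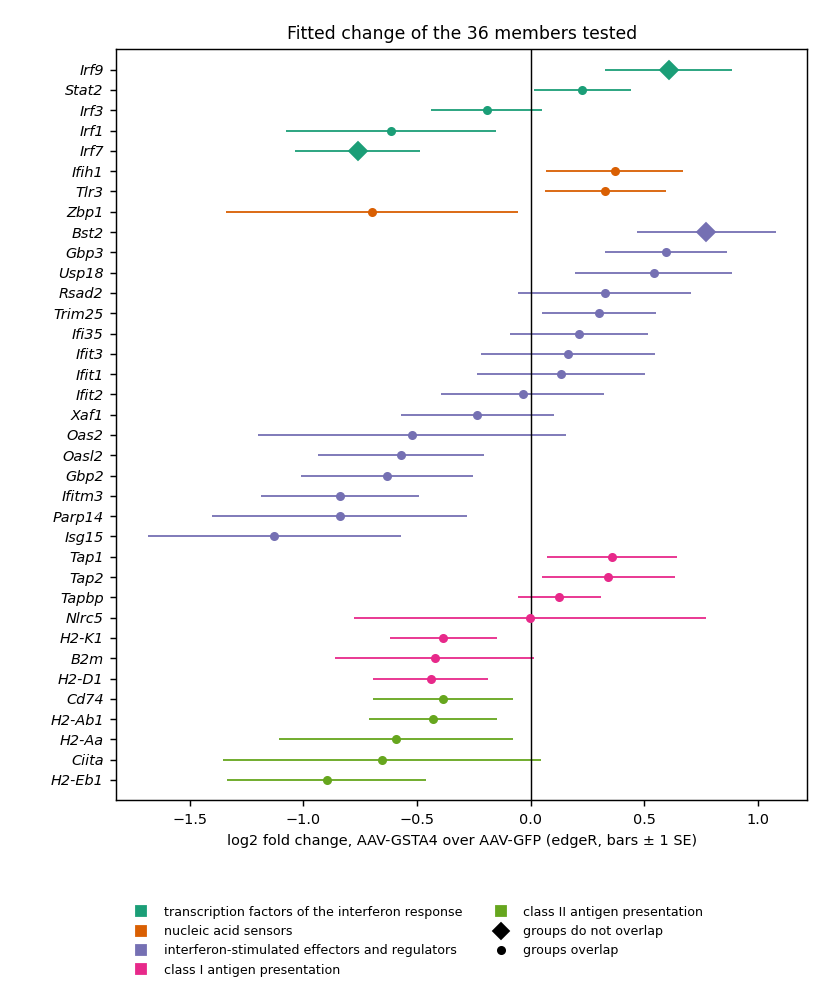
Log2 fold change of AAV-GSTA4 over AAV-GFP from edgeR for the 36 members tested, ordered within role; bars are 1 SE to either side, and diamonds mark members whose groups do not overlap. Irf9 and Bst2 lie to the right at 0.61 and 0.77, Irf7 to the left at -0.76, and the 5 class II genes all lie left of 0.

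These counts depended on AAV-GFP replicate 3, which held the lowest value of 15 of the 36 members. Without it, 12 members lay lower in every AAV-GSTA4 library than in both remaining AAV-GFP libraries (33.3%, background 11.9%), and 3 lay higher (background 12.7%). The 12 were Irf7, Isg15, Oasl2, Ifitm3, Gbp2, Xaf1, H2-D1, H2-K1, B2m, H2-Aa, H2-Ab1 and H2-Eb1. The 3 higher were Irf9, Bst2 and Tap2. Fitted changes lay below 0 for 22 of the 36, against 49.6% of all genes. The unadjusted p-value was under 0.05 for 11 lower members (30.6%, background 5.74%) and 2 higher (background 6.76%), but edgeR called 0 members after adjustment, where the lowest adjusted p-value was 0.313. This set of libraries was looked at because the library stood apart, after its values had been seen. Other single libraries moved the counts less. Without AAV-GFP replicate 2 the groups did not overlap for 5 higher members (background 9.49%) and 2 lower (background 10.2%). Without AAV-GSTA4 replicate 2 they did not overlap for 5 higher (background 11.9%) and 1 lower (background 7.98%), and without AAV-GSTA4 replicate 4 for 2 higher (background 8.43%) and 2 lower (background 7.21%). As shares of the 36 members, 5 is 13.9%, 3 is 8.33%, 2 is 5.56% and 1 is 2.78%. The members with an unadjusted p-value under 0.05 numbered 3 higher (background 5.46%) and 1 lower (background 7.28%) without AAV-GFP replicate 1. They numbered 2 and 1 without AAV-GFP replicate 2 (background 3.71% and 6.81%), without AAV-GSTA4 replicate 1 (4.11% and 7.46%) and without AAV-GSTA4 replicate 2 (6.11% and 5.28%). They numbered 0 and 0 without AAV-GSTA4 replicate 3 (3.21% and 3.67%), and 0 and 3 without AAV-GSTA4 replicate 4 (4.02% and 4.45%).

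**Figure D2:**
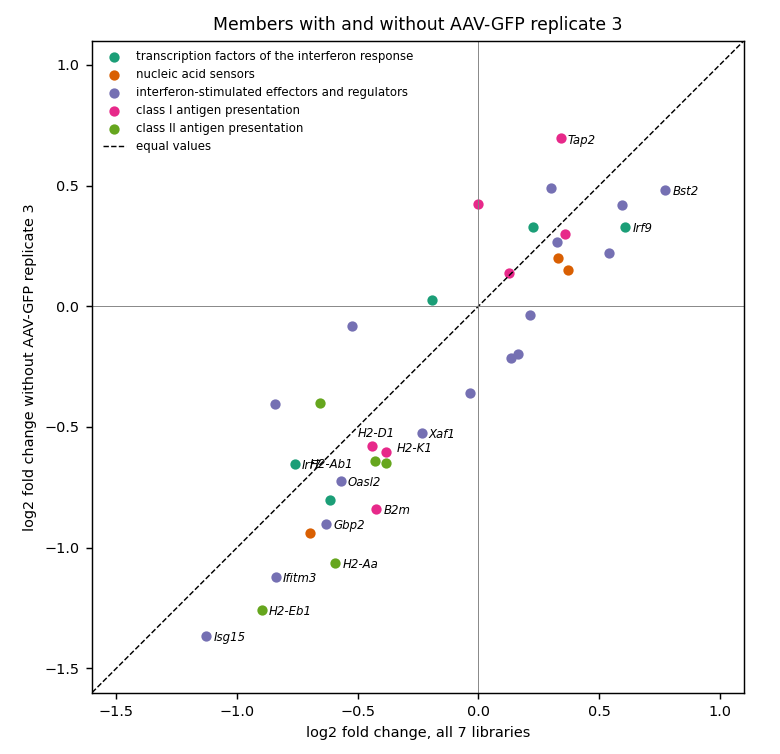
Log2 fold change of each of the 36 members with all 7 libraries (horizontal axis) and without AAV-GFP replicate 3 (vertical axis), coloured by role; names are given where the groups do not overlap without that library, and the dashed line marks equal values. H2-Eb1 moves from -0.90 to -1.26, B2m from -0.42 to -0.84 and Tap2 from 0.34 to 0.70.

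Of the 5 transcription factors, 2 had fitted changes above 0 and 3 below, and none passed the test. Irf7, the factor that amplifies type I interferon production, was at 31.2, 28.3 and 36.7 CPM in the AAV-GFP libraries and at 20.8, 14.9, 13.8 and 26.1 CPM in the AAV-GSTA4 libraries, each in the order of their replicate numbers. Every AAV-GSTA4 library lay below every AAV-GFP library. Its log2 fold change was -0.76 ± 0.27 (SE, edgeR adjusted p = 0.373). Irf9, the DNA-binding partner of STAT2, was at 57.0, 49.0 and 24.7 CPM in AAV-GFP and at 67.2, 66.8, 62.4 and 69.3 CPM in AAV-GSTA4. The 4 AAV-GSTA4 libraries were close together and all above the AAV-GFP libraries, of which replicate 3 was the lowest. The log2 fold change was 0.61 ± 0.28 (SE, adjusted p = 0.428 in edgeR's test), and 0.33 ± 0.18 (SE, adjusted p = 0.474) without AAV-GFP replicate 3.

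The other factors overlapped between the groups. Stat2, the type I signal transducer, averaged 31.7 ± 3.65 CPM with AAV-GFP (SD, n = 3) against 37.1 ± 5.29 CPM with AAV-GSTA4 (SD, n = 4). Irf3, which is present before any infection and is activated by sensors, averaged 28.1 ± 6.83 CPM with AAV-GFP (SD, n = 3) against 24.6 ± 4.11 CPM with AAV-GSTA4 (SD, n = 4). Irf1, a factor induced by interferon gamma, varied most of the 5: it spanned 32.0 to 69.8 CPM in AAV-GFP and 11.3 to 48.1 CPM in AAV-GSTA4, a 6.19-fold range over the 7 libraries.

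Y-linked transcripts were abundant in 1 AAV-GFP library (replicate 1) and 2 AAV-GSTA4 libraries (replicates 3 and 4), and absent or near 0 in the others, so the 3 members whose groups did not overlap were also compared within these classes. The log2 ratio of mean CPM for Irf7 was -0.65 among libraries with Y-linked transcripts and -0.86 among those without. For Irf9 it was 0.21 and 0.86, and for Bst2 0.80 and 0.67. Each class held 2 AAV-GSTA4 libraries and 1 or 2 AAV-GFP libraries, too few for a test. Because these 3 members were picked for groups that did not overlap, the sign within each class was fixed in advance. The ratios therefore give only the size of the difference within a class.

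The nucleic acid sensors were measured at low to moderate levels. Tlr3, the endosomal receptor for double-stranded RNA that RPE cells are known to carry, was at 34.7, 19.93 and 19.98 CPM in AAV-GFP and at 30.8, 26.6, 37.0 and 30.6 CPM in AAV-GSTA4. AAV-GFP replicate 1 lay among the AAV-GSTA4 values and the other two below them, a log2 fold change of 0.33 ± 0.27 (SE, adjusted p = 0.637 in edgeR's test). It was 0.65 without AAV-GFP replicate 1 and 0.20 without AAV-GFP replicate 2 or 3. Ifih1, the cytosolic RNA sensor MDA5, spanned 8.84 to 15.9 CPM in AAV-GFP and 12.8 to 20.3 CPM in AAV-GSTA4. Zbp1, a sensor of left-handed nucleic acid that can trigger necroptosis, spanned 1.73 to 4.66 CPM and 0.789 to 2.58 CPM. Tlr9, the endosomal receptor for unmethylated CpG DNA, had 0, 1 and 0 counts in AAV-GFP and 0, 2, 0 and 1 counts in AAV-GSTA4, all under the limit of 3 counts, so a difference was not detectable at this depth.

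**Figure D3:**
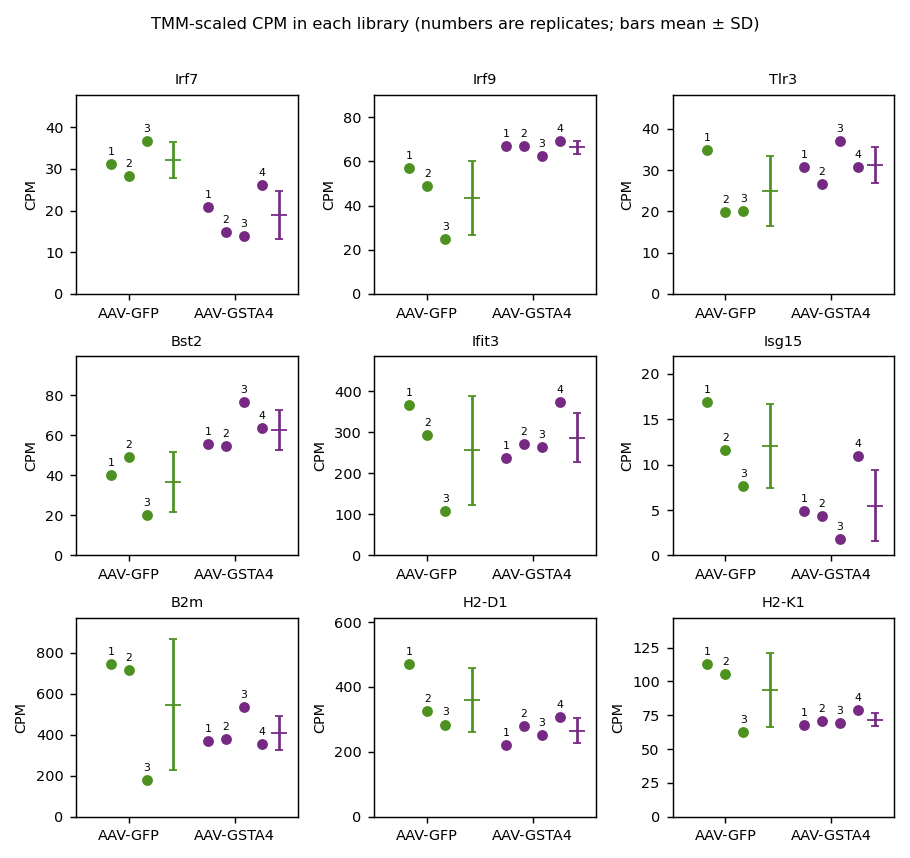
CPM of 9 members in each library, with the replicate number above each point and the mean ± SD to the right of each group; every vertical axis starts at 0. Irf7 is lower and Irf9 and Bst2 are higher in all 4 AAV-GSTA4 libraries, whereas AAV-GFP replicate 3 is the lowest of all libraries for B2m at 179 CPM and for Ifit3 at 108 CPM.

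The 16 effectors and regulators split evenly, with 8 fitted changes above 0 and 8 below, from -1.13 to 0.77. Bst2, tetherin, which holds budding virus at the cell surface, was at 40.2, 49.2 and 20.2 CPM in AAV-GFP and at 55.7, 54.5, 76.3 and 63.4 CPM in AAV-GSTA4. All AAV-GSTA4 libraries were above all AAV-GFP libraries. The log2 fold change was 0.77 ± 0.30 (SE, edgeR adjusted p = 0.383), and 0.48 ± 0.21 (SE, adjusted p = 0.398) without AAV-GFP replicate 3. Gbp3, a guanylate-binding protein, had the next largest positive change of the role, at 0.60 ± 0.27 (SE), with 41.7 to 66.9 CPM in AAV-GFP and 61.2 to 106 CPM in AAV-GSTA4. Usp18 followed at 0.54 ± 0.35 (SE); it removes ISG15 from proteins and restrains the type I receptor.

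Isg15, the ubiquitin-like modifier that Usp18 removes, had a fitted change below 0. It was at 16.9, 11.7 and 7.64 CPM in AAV-GFP and at 4.89, 4.32, 1.76 and 10.99 CPM in AAV-GSTA4. Only AAV-GSTA4 replicate 4 reached into the AAV-GFP range. The log2 fold change was -1.13 ± 0.56 (SE, edgeR adjusted p = 0.450). Ifitm3, a membrane protein that blocks viral entry, was at 185, 224 and 95.7 CPM in AAV-GFP and at 63.6, 122, 70.2 and 121 CPM in AAV-GSTA4. Here AAV-GFP replicate 3 lay among the AAV-GSTA4 libraries and the other AAV-GFP libraries above them, and the log2 fold change was -0.84 ± 0.35 (SE, adjusted p = 0.397 in edgeR's test). Without that library it was -1.12 ± 0.29 (SE, edgeR adjusted p = 0.313).

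The Ifit genes, RNA-binding antiviral proteins encoded side by side on chromosome 19, differed less. Ifit3, the most abundant effector per kilobase after Ifitm3, was at 366, 294 and 108 CPM in AAV-GFP and at 238, 272, 264 and 373 CPM in AAV-GSTA4. The AAV-GSTA4 values lay inside the range set by AAV-GFP replicates 1 and 3, except for replicate 4 just above it. Its log2 fold change was 0.16 ± 0.38 (SE, adjusted p = 0.892 in edgeR's test) and turned to -0.20 ± 0.23 (SE) without AAV-GFP replicate 3. Ifit1 turned from 0.13 to -0.22 in the same way, and Ifit2 was at -0.04 with and -0.36 without that library. Counts of Ifit3 may include reads from its close copy Ifit3b, since the handling of reads that fit both is not given in the sources used here.

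The remaining effectors overlapped between the groups. Gbp2, Oasl2, Oas2, Parp14 and Xaf1 had fitted changes from -0.84 to -0.23, and Rsad2, Trim25 and Ifi35 from 0.21 to 0.33. Parp14, a mono-ADP-ribosyltransferase, was uneven even within AAV-GSTA4, where it spanned 1.58 to 9.21 CPM. Oas2, an enzyme that makes the activator of RNase L, was at 0.882 to 4.23 CPM, or 15 to 88 counts. Of the 11 genes with an ISRE core match, 7 had fitted changes above 0 and 4 below, from Isg15 at -1.13 to Bst2 at 0.77. Of all 36 members tested, 15 were above 0 and 21 below. Among the 7, Ifit1 and Ifit3 turned to -0.22 and -0.20 without AAV-GFP replicate 3. Whether a match went with the direction of change was not tested.

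**Figure D4:**
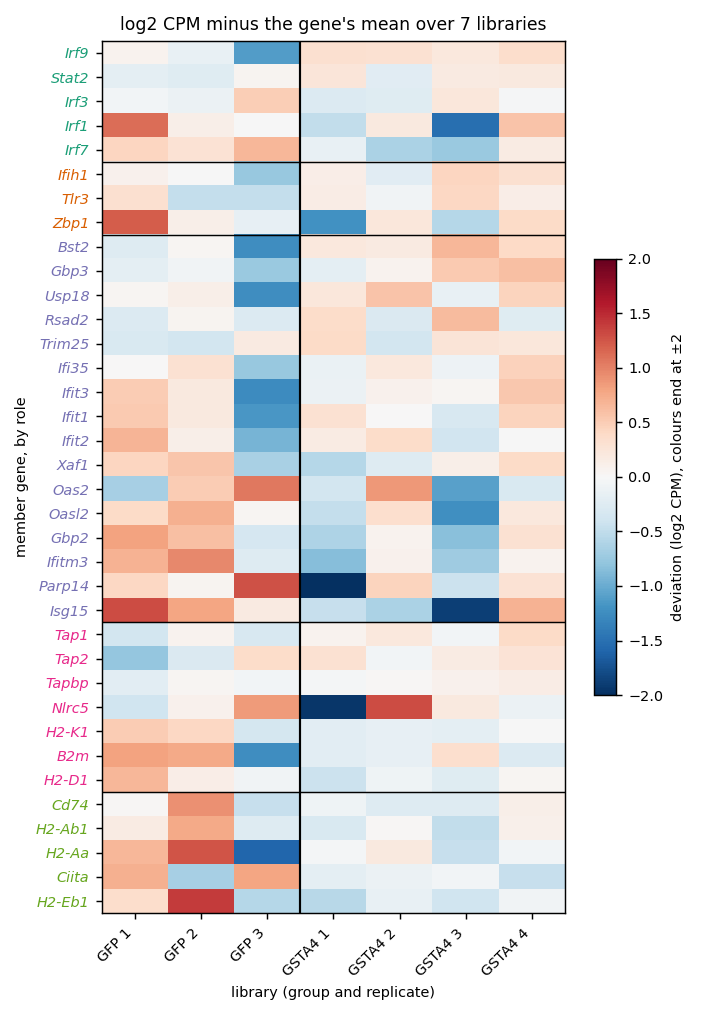
Log2 CPM of the 36 members in each library minus the gene's mean over the 7 libraries, grouped by role, with the groups parted by the vertical line; red is above and blue below the mean, and the colours end at 2 to either side. The AAV-GFP replicate 3 column is blue for Irf9, Bst2, Usp18, the 3 Ifit genes, B2m and H2-Aa and red for Parp14 and Oas2.

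Of the 7 class I genes, 3 had fitted changes above 0 (Tap1, Tap2 and Tapbp) and 4 below (B2m, H2-D1, H2-K1 and Nlrc5, the last at 0.00), and none passed the test. With library totals Tap2 and Tapbp turned to -0.02 and -0.18. B2m, the invariant light chain and per kilobase the most abundant of the 37 genes at 544 CPM per kilobase of exon, was at 747, 716 and 179 CPM in AAV-GFP. In AAV-GSTA4 it was at 368, 379, 534 and 353 CPM. The 4 AAV-GSTA4 libraries lay between AAV-GFP replicate 3 and the other two, a log2 fold change of -0.42 ± 0.44 (SE, adjusted p = 0.726 in edgeR's test). Without AAV-GFP replicate 3 it was -0.84 ± 0.22 (SE, edgeR adjusted p = 0.313), but -0.13 without AAV-GFP replicate 1 and -0.18 without AAV-GFP replicate 2.

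H2-D1, a classical class I heavy chain, was at 472, 326 and 284 CPM in AAV-GFP and at 221, 281, 253 and 308 CPM in AAV-GSTA4. Only AAV-GSTA4 replicate 4 exceeded the lowest AAV-GFP library, and the log2 fold change was -0.44 ± 0.25 (SE, adjusted p = 0.505 in edgeR's test). H2-K1, the other classical heavy chain, was at 113, 105 and 62.3 CPM and at 68.0, 70.7, 69.3 and 78.8 CPM, a log2 fold change of -0.38 ± 0.24 (SE). Without AAV-GFP replicate 1 the change of H2-D1 was -0.20 and that of H2-K1 -0.22, and without AAV-GFP replicate 3 they were -0.58 and -0.60. Class I heavy chain genes are near-copies of each other, so counts of either depend on the unstated treatment of reads that map to several places. Tap1 and Tap2, the subunits of the peptide transporter, had fitted changes of 0.36 ± 0.28 and 0.34 ± 0.29 (SE). Tapbp, tapasin, which tethers the transporter to class I, varied least of all 36 members, averaging 90.0 ± 7.93 CPM with AAV-GFP (SD, n = 3) against 98.3 ± 5.23 CPM with AAV-GSTA4 (SD, n = 4). Nlrc5, the class I transactivator, was scarce and erratic, from 0.421 to 4.798 CPM within AAV-GSTA4 alone, and its fitted change was 0.00 ± 0.78 (SE).

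All 5 class II genes had fitted changes below 0, from -0.90 to -0.38, and none passed the test. H2-Eb1, a class II beta chain, was at 11.2, 23.1 and 5.86 CPM in AAV-GFP and at 5.95, 7.87, 6.64 and 8.34 CPM in AAV-GSTA4. The fitted log2 change was -0.90 ± 0.44 (SE, adjusted p = 0.448 in edgeR's test), -0.24 without AAV-GFP replicate 2 and -1.26 without AAV-GFP replicate 3. Cd74, the invariant chain that occupies the class II groove until peptide loading, was at 68.5, 127 and 49.1 CPM in AAV-GFP and at 63.3, 56.6, 56.4 and 73.3 CPM in AAV-GSTA4, a log2 fold change of -0.38 ± 0.31 (SE, adjusted p = 0.636). In both genes AAV-GFP replicate 2 was the highest of all 7 libraries and AAV-GFP replicate 3 the lowest. H2-Aa and H2-Ab1, the alpha and beta chains of the other class II molecule, showed the same high library, at 52.4 and 55.9 CPM in AAV-GFP replicate 2. Without that library their fitted changes were -0.01 and -0.11, and without AAV-GFP replicate 3 they were -1.06 and -0.64. Without AAV-GFP replicate 2 the median class II change went from -0.59 to -0.11 and Cd74 to 0.09; without AAV-GFP replicate 3 the median was -0.65. Ciita, the master transactivator of class II, was scarce, at 1.96, 0.695 and 2.06 CPM in AAV-GFP and between 0.812 and 1.12 CPM in AAV-GSTA4. It was lowest in the library where the class II chains were highest.

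Markers of cells that carry class II differed between lists, and none passed the adjusted threshold. Of 12 macrophage and microglia markers, 11 had fitted changes below 0, and Csf1r alone was above, at 1.11 ± 0.34 (SE). The 12 summed to 491 to 888 CPM in AAV-GFP and 684 to 936 CPM in AAV-GSTA4. Without Csf1r, their most abundant member in AAV-GSTA4, the sum was 364 to 648 CPM in AAV-GFP and 288 to 394 CPM in AAV-GSTA4, highest in AAV-GFP replicate 2, as were the class II chains. The sum of the 6 dendritic cell markers was 12.7 to 19.7 CPM in AAV-GFP and 7.79 to 12.1 CPM in AAV-GSTA4; Xcr1 and Clec9a, markers of cross-presenting dendritic cells, were at 0 in AAV-GSTA4 replicates 1 and 3 and in AAV-GFP replicate 2, respectively. The 5 B cell markers summed to 2.98 to 5.67 CPM and 4.00 to 9.52 CPM, and 3 of the 4 tested had fitted changes above 0. The part of these cells in the class II and class I values was not tested. In bulk RNA, fewer cells of a type and less RNA per cell cannot be told apart.

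**Figure D5:**
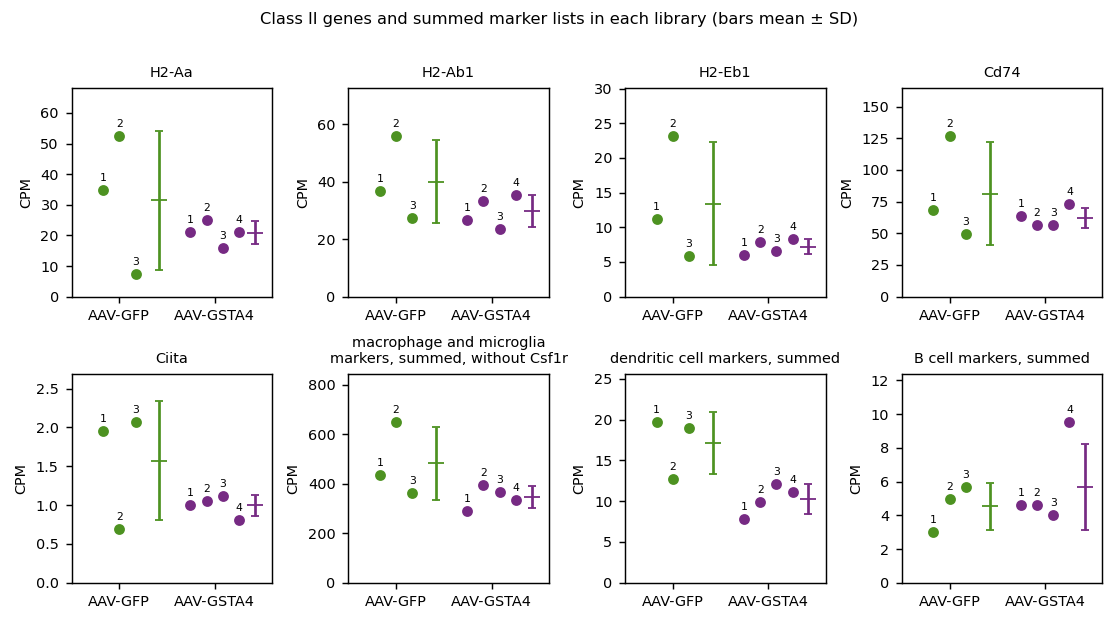
CPM of the 5 class II genes and summed CPM of 3 marker lists in each library, with replicate numbers above the points and the mean ± SD beside each group; axes start at 0. AAV-GFP replicate 2 is the highest library for H2-Aa, H2-Ab1, H2-Eb1, Cd74 and the macrophage and microglia sum without Csf1r, but not for Ciita or the dendritic cell sum.

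Co-variation over the 7 libraries was computed for 13 pairs of members. With Cd74, Pearson's r was 0.928 for H2-Eb1 (exact permutation p = 0.0121, adjusted 0.0574) and Spearman's rho was 0.857 (exact permutation p = 0.0238, adjusted 0.123). For H2-Ab1 r was 0.887 and rho 0.786 (exact permutation p = 0.0145 and 0.0480), and for H2-Aa r was 0.817 and rho 0.750 (exact permutation p = 0.0357 and 0.0663). Without the 2 libraries farthest from the median of Cd74, AAV-GFP replicates 2 and 3, r fell to 0.396 to 0.622. Leaving out the extremes of Cd74 narrows its range, which can itself lower r. Whether the relations rested on those libraries was therefore not decided. For Ciita the values were r = -0.64 and rho = -0.79 (exact permutation p = 0.122 and 0.0480), but r was 0.03 without those libraries.

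Irf7 was set against 5 effectors. For Isg15 r was 0.836 (exact permutation p = 0.0177, adjusted 0.0574) and rho 0.786 (exact permutation p = 0.0480, adjusted 0.123). For Bst2 r was -0.75 (exact permutation p = 0.0329, adjusted 0.0774) and rho was -0.86 (exact permutation p = 0.0238, adjusted 0.123). Without AAV-GSTA4 replicates 2 and 3, r was 0.484 for Isg15 and -0.83 for Bst2. Both relations also run along the difference between the groups, and no value was computed within a group, since neither has 6 libraries. For B2m with H2-K1 r was 0.824 and rho 0.750 (exact permutation p = 0.0145 and 0.0663, adjusted 0.0574 and 0.123), and r stayed at 0.724 without AAV-GFP replicates 1 and 3. For B2m with H2-D1 r was 0.500 and rho 0.429, and the exact permutation p-values were 0.252 and 0.354. For the other 5 pairs no p-value was under 0.167. None of the 13 passed 0.05 after adjustment.

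A wider list of 118 genes of the same pathways, other than the 37, was read from the same fit. It held 101 genes with enough counts, of which 0 were called by edgeR after adjustment. At an unadjusted p-value under 0.05, 2 were higher (1.98%, background 5.27%) and 8 lower (7.92%, background 6.63%). Fitted changes lay below 0 for 58 (57.4%, background 55.4%). Their median log2 fold change was -0.14. The groups did not overlap for 5 higher (4.95%, background 6.44%) and 10 lower genes (9.9%, background 5.61%), or 14.9% against 12% of all genes together. Without AAV-GFP replicate 3 these were 9 (8.91%, background 12.7%) and 22 (21.8%, background 11.9%), and without AAV-GFP replicate 2 they were 8 (7.92%, background 9.49%) and 16 (15.8%, background 10.2%). Without AAV-GSTA4 replicate 1 they were 9 (8.91%, background 9.76%) and 12 (11.9%, background 10.2%), and without AAV-GSTA4 replicate 4 they were 6 (5.94%, background 8.43%) and 16 (15.8%, background 7.21%). The counts at an unadjusted p-value under 0.05 became 4 higher without AAV-GSTA4 replicate 1 (background 4.11%), and 5 lower without AAV-GFP replicate 2 (background 6.81%), AAV-GSTA4 replicate 3 (3.67%) or AAV-GSTA4 replicate 4 (4.45%).

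Of the 11 interferon ligand genes none had enough counts to be tested. Ifnb1, the gene of interferon beta, had 37 counts in AAV-GFP replicate 3, 5 in AAV-GSTA4 replicate 2 and 0 in the other 5 libraries. Ifng had 0 counts in every library. The ligands' transcripts were thus at or under the limit of 3 counts in nearly all libraries, which limits statements to what was detectable at this depth.

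Of the receptors and signalling genes, Ifnar2, a chain of the type I receptor, averaged 18.98 ± 2.58 CPM with AAV-GFP (SD, n = 3) against 25.8 ± 3.81 CPM with AAV-GSTA4 (SD, n = 4), without overlap (log2 fold change 0.44 ± 0.23, SE). Ptpn2, a phosphatase that dampens JAK signalling, averaged 51.8 ± 4.02 CPM with AAV-GFP (SD, n = 3) against 40.1 ± 5.41 CPM with AAV-GSTA4 (SD, n = 4), with every AAV-GSTA4 library lower. Socs1, a feedback inhibitor of JAK kinases, was at 0.746, 0.695 and 3.89 CPM and at 0.632, 0.144, 0.529 and 0.295 CPM, with AAV-GFP replicate 3 far above all others and every AAV-GSTA4 library below the AAV-GFP libraries. Their adjusted p-values in edgeR's test were between 0.412 and 0.479.

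Among the sensors, Ddx58, the RNA helicase RIG-I, was at 19.2, 21.97 and 17.8 CPM in AAV-GFP and at 25.9, 34.8, 32.9 and 35.9 CPM in AAV-GSTA4. Each AAV-GSTA4 library lay above each AAV-GFP library. The log2 fold change was 0.72 ± 0.22 (SE, edgeR adjusted p = 0.363). Aim2, a cytosolic DNA sensor, averaged 4.22 ± 2.19 CPM with AAV-GFP (SD, n = 3) against 1.53 ± 0.355 CPM with AAV-GSTA4 (SD, n = 4), with every AAV-GSTA4 library lower. Its log2 fold change was -1.46 ± 0.55 (SE, adjusted p = 0.375).

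Among the other stimulated genes, Lgals3bp, a secreted glycoprotein, averaged 201 ± 45.7 CPM with AAV-GFP (SD, n = 3) against 372 ± 81.0 CPM with AAV-GSTA4 (SD, n = 4), with every AAV-GSTA4 library higher. Its log2 fold change was 0.89 ± 0.27 (SE, edgeR adjusted p = 0.363). Sp100, a component of nuclear bodies, averaged 7.85 ± 2.21 CPM with AAV-GFP (SD, n = 3) against 3.14 ± 0.980 CPM with AAV-GSTA4 (SD, n = 4), and its fitted log2 change was -1.32 ± 0.42 (SE, adjusted p = 0.363). In class I presentation, Psmb8, a catalytic subunit of the immunoproteasome that cuts peptides for class I, was at 34.7, 41.0 and 29.8 CPM in AAV-GFP and at 13.1, 17.1, 11.05 and 28.6 CPM in AAV-GSTA4. AAV-GSTA4 replicate 4 came close to the AAV-GFP libraries but stayed below them, and the log2 fold change was -1.01 ± 0.33 (SE, adjusted p = 0.363 in edgeR's test). H2-T23, a non-classical heavy chain, averaged 26.3 ± 2.18 CPM with AAV-GFP (SD, n = 3) against 19.5 ± 2.98 CPM with AAV-GSTA4 (SD, n = 4), every AAV-GSTA4 library lower. Pdia3, an endoplasmic reticulum chaperone of the loading complex, averaged 395 ± 115 CPM with AAV-GFP (SD, n = 3) against 583 ± 103 CPM with AAV-GSTA4 (SD, n = 4), every one higher. Cd40, a co-stimulatory receptor of class II cells, was at 1.16 to 2.06 CPM in AAV-GFP and 0 to 0.816 CPM in AAV-GSTA4. The last 3 had adjusted p-values of 0.472, 0.467 and 0.603.

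Per kilobase of exon, the order of mean levels among the 37 genes ran from B2m at 544 CPM per kilobase through Ifitm3 at 186, Ifit3 at 157 and H2-D1 at 119 to Bst2 at 56.9. At the low end were Nlrc5 at 0.269, Ciita at 0.130 and Tlr9 at 0.00704 CPM per kilobase. The transactivators Ciita and Nlrc5 were therefore the least abundant members apart from Tlr9. The spread over the 7 libraries also differed between members: Tapbp varied 1.28-fold from its lowest to its highest library and Stat2 1.41-fold, whereas Isg15 varied 9.57-fold, Parp14 10.4-fold and Nlrc5 11.4-fold.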

How the data were processed

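Per the labels' protocols, TRIzol-extracted RNA went through SMART-Seq low-input cDNA synthesis and Nextera XT library preparation. The values the authors deposited are raw read counts per gene symbol; STAR 2.7.1a, featureCounts 1.6.2 and the build GRCm38 are named in the submitters' processing notes. Strand setting and multi-mapping rule are not given in the sources used here. No molecular identifiers are mentioned, so detection limits cover counting error only. Columns were matched to libraries by library name; replicates are numbered by the titles. The members and lists were chosen with earlier results of these data known.

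All 15075 genes passing edgeR's default filter were fitted (edgeR 4.0.16, R 4.3.3) with TMM scaling, the group as the only factor and robust quasi-likelihood; p-values were adjusted by Benjamini-Hochberg over all of them, at a threshold of 0.05. Each SE was derived from the log2 fold change and its F statistic. Log2 CPM used a prior count of 2. The fit was also run on simulated counts, whose outcome is not reported here. The size of change it could detect is therefore not given. Exon lengths and gene spans are from GENCODE M21 (GRCm38), promoter windows from RefSeq. Mx1, Mx2, Oas1b and Trac were not matched; Mb21d1 and Tmem173 were matched as Cgas and Sting1. All pairs of libraries differed beyond sampling noise (chi-square per gene at least 57.5).

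Members given in full are, by role, the one with the highest mean CPM, the one with the smallest p-value and any whose groups did not overlap; other members are summarised. From the wider list, at most the 3 genes with the smallest p-values among those without overlap are named in each sub-list; some items are not reported here. Ifnb1, Ifng, and the full values of Isg15, Ifitm3 and H2-K1 were added after their values were seen. Alternatives were median-of-ratios scaling, library totals, 2 other filters, DESeq2 1.42.0, limma-voom (limma 3.58.1), replicate blocks, a Y-linked factor and each library left out in turn. The limma-voom fits used a quality weight estimated for each library. The one with robust variances was added after seeing the data.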

Additional observations from a re-analysis of the deposited data

Results flagged for a closer look

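In AAV-GSTA4, 49 genes (36 members and 13 genes of the wider list) were examined for 1 library far from the other 3. B2m was at 534 CPM in AAV-GSTA4 replicate 3, against 353 to 379 CPM in the others; the gap was 0.859 of the group's range. Cd40 was at 0 CPM in AAV-GSTA4 replicate 1, against 0.705 to 0.816 CPM in the others, also with most of the group's range as the gap. Chance gives such a gap in about 5% of groups, so 2 of 49 is no more than chance gives.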

How the results depend on the processing

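Of the 36 members tested, 25 kept the sign of their fitted change in all 17 alternatives, Irf7, Irf9, Bst2, Isg15, Ifitm3, B2m, H2-D1 and H2-K1 among them, and no member passed the adjusted threshold in any. The count of all genes past it was 201 in DESeq2, 146 in limma-voom with robust variances (1 of the wider list, Ifi27l2a), 1 with a replicate block by either numbering, and 0 to 1 with a library left out.

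Scaling by library totals took the all-gene median from -0.07 to -0.37. The median then was -0.51 for the members, -0.54 for the transcription factors, -0.40 for class I and -0.44 for the wider list; relative to all genes the members were at -0.14 under either scaling. Members at an unadjusted p under 0.05 became 0 higher and 10 lower, the latter 27.8% of the members (1.77% and 14.1% of all genes). Those without overlap became 0 and 8, the latter 22.2% (2.02% and 12% of all genes). In the wider list these were 1 and 19 (0.99% and 18.8%), and 2 and 21 (1.98% and 20.8%). Stat2 reversed to -0.091, Ifit1 to -0.072, Ifit3 to -0.048, Ifi35 to -0.038, Trim25 to -0.036, Tap2 to -0.024 and Tapbp to -0.18.

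At an unadjusted p under 0.05 there were 2 higher members with median-of-ratios scaling (5.56%, against 5.61% of all genes). There were 3 with no filter (8.11%, against 4.32%) and 3 in DESeq2 (8.33%, against 6.63%). In limma-voom 5 were higher and 11 lower (13.9% and 30.6%, against 10.3% and 11.5%). With robust variances these were 5 and 10 (13.9% and 27.8%, against 10.4% and 11.4%). In the wider list there were 4 higher with at least 10 counts in every library (4.49%, against 5.96% of all genes) and 6 in DESeq2 (5.94%). Both limma-voom fits gave 7 higher and 17 lower (6.93% and 16.8%). With the Y-linked factor 4 were lower (3.96%, against 5.28%). The log2 fold change of Nlrc5 reversed to 0.030 with median-of-ratios scaling and DESeq2, 0.0399 without a filter and 0.15 with the Y-linked factor; in both limma-voom fits Irf3 reversed to 0.044 and Ifit1 to -0.052. The causes were not tested.

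The replicate numbers were not shown to pair libraries: same-numbered libraries deviated together with correlations of -0.09 to 0.01 by title and -0.13 to 0.01 by library name, and none correlated best with its own number by title, but number 3 did by library name. With a replicate block by title, 0 members were higher and 5 lower (13.9%) at an unadjusted p under 0.05 (1.94% and 3.69% of all genes). Ifit2 then reversed to 0.10. By library name 1 was lower (2.78%, against 3.87% of all genes). In the wider list the block gave 0 higher by title, and 1 higher and 2 lower by library name.

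With each library left out in turn, members at an unadjusted p under 0.05 ranged from 0 to 3 higher and 0 to 11 lower, and those without overlap from 2 to 5 and 1 to 12. The wider list ranged from 2 to 4 and 5 to 8, and from 6 to 9 and 10 to 22. The shares of all genes moved too. At an unadjusted p under 0.05 they ranged from 3.21% to 6.76% higher and 3.67% to 7.46% lower. Without overlap they ranged from 8.29% to 12.7% and 6.23% to 11.9%, against 6.44% and 5.61% with every library. The class I median ranged from -0.36 to 0.17. Changes of sign occurred in Irf3 (-0.30 to 0.026), Ifit1 (-0.22 to 0.48), Ifit2 (-0.36 to 0.38), Ifit3 (-0.20 to 0.52), Ifi35 (-0.035 to 0.46), Nlrc5 (-0.65 to 0.43) and Cd74 (-0.65 to 0.091). Depth limits Tlr9 and the interferon ligands.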
